A study of Mus musculus with 3 samples.

Results

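The Polycomb complex genes are 7 mouse genes, Ezh1, Ezh2, Eed, Suz12, Jarid2, Bmi1 and Rnf2, taken by their Ensembl identifiers from the 24318 identified rows of a table of H3K36me3 signal over genes. The rule names the genes and uses no measured value, though earlier results of these data were known when it was made. H3K36me3, trimethylation of histone H3 at lysine 36, was mapped by CUT&Tag, in which an antibody brings a transposase to the mark so that the DNA beside it is cut and tagged. The cells were EpCAM-labelled epithelial cells sorted from the fetal pancreas of wild-type C57BL/6 mice at the embryonic stages called E11.5, E13.5 and E15.5, with 1 library per stage. No treatment or allele separates the groups, so stage is the only difference the labels give. The number of embryos behind a library is not stated, and the sorted cells hold every epithelial type of the stage. With 1 library per stage there is no spread between embryos and no test, and every difference below is a size in these libraries.

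Polycomb proteins keep developmental genes silent. Polycomb repressive complex 2 (PRC2) methylates lysine 27 of histone H3 through its catalytic subunit, EZH2 or EZH1, which works only together with EED and SUZ12. JARID2 is an accessory subunit that helps to bring PRC2 to chromatin. Polycomb repressive complex 1 (PRC1) marks histone H2A with ubiquitin through RNF2, also called RING1B, and BMI1 is one of the partner subunits of that ligase. H3K36me3 itself is laid down behind elongating RNA polymerase and hinders PRC2 on the same nucleosome. In the pancreas EZH2 is known for its part in the growth of progenitors and of beta cells. Signal over these genes is read here as the mark on the genes that encode the complexes, not as binding of the complexes.

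Each row of the deposited files holds 3 values per library, headed PR, GB and SE. All behave as a summed signal divided by the length of a window. GB was the gene body. The window length recovered from the GB values equalled the RefSeq gene length (GRCm38.p6) for 6 of the 7 genes. It was 35349 positions for Ezh1 (chr11:101191115-101226463), 26323 for Eed (chr7:89954654-89980976), 41018 for Suz12 (chr11:79993106-80034123), 190870 for Jarid2 (chr13:44730774-44921643), 9612 for Bmi1 (chr2:18677018-18686629) and 31594 for Rnf2 (chr1:151469398-151500991). For Ezh2 (chr6:47530274-47595270, 64997 positions) it was 64757, which is the distance from the start site in the RefSeq promoter table to the far end of the gene. The lengths thus matched the names given to the identifiers.

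PR covers 6000 positions and SE 12000, and the headers do not spell either out. Their place was read from short genes, chosen after seeing the data. Among genes with bodies of 500 to 1500 positions the summed GB signal exceeded the summed PR signal by no more than 1 step, the smallest unit of signal in a library, in any of 443, 404 and 306 genes in stage order. With the same allowance of 1 step this held for 97.3 to 99.01% of genes of 1500 to 3000 positions and for 64.8, 62.2 and 70.9% in stage order at 4000 to 5000. For SE the share was 98.3 to 99.7% from 3000 to 6000 positions and 76.2, 79.1 and 81.2% in stage order at 7000 to 8000. PR therefore took in about 3000 positions of the gene, and SE about 6000. The nesting cannot tell whether these lie at a single end or are split between both. Which end is not stated, and PR is used below only as a window at the gene ends.

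The DNA just before the start sites of Ezh2, Ezh1 and Bmi1 is shown. These genes were picked by their PR at E15.5, after the values were seen. Ezh2 had the highest PR of the 7 genes, Ezh1 the lowest, and PR of Bmi1 stood over a nearly empty gene body. Each line gives the 250 bases upstream in the direction of the gene, from RefSeq (GRCm38.p6), at chr6:47595031-47595280 on the minus strand for Ezh2, chr11:101226464-101226713 on the minus strand for Ezh1 and chr2:18676768-18677017 on the plus strand for Bmi1. For Ezh2 the start site is that of the promoter table, chr6:47595030, where its GB window begins. The RefSeq gene runs on to 47595270, so most of the Ezh2 stretch lies inside the annotated gene. Capitals mark CG dinucleotides.
Ezh2: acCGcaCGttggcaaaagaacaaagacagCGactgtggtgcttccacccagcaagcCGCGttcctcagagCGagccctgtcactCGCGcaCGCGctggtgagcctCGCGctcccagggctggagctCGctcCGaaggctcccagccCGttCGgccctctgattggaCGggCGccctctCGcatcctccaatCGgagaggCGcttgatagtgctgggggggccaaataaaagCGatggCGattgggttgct
Ezh1: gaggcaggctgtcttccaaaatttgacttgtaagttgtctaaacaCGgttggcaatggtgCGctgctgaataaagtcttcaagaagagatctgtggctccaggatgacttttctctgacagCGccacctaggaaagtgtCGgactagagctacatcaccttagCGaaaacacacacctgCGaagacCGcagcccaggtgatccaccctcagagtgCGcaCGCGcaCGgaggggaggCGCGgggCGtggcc
Bmi1: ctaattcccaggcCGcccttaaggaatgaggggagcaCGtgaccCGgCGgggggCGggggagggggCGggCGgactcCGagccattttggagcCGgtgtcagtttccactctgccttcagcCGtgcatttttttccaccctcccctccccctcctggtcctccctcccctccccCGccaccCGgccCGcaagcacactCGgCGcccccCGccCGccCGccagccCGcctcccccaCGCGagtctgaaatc
These stretches held 23, 14 and 21 CG, where the median over 32851 RefSeq promoter windows of the same length was 6 and the upper quartile 16. The motif searched was CG, which reads the same on both strands. Over the start sites at which the GB windows of the 7 genes begin, the count ran from 12 in Eed to 37 in Suz12, the 67.5th to the 98.0th percentile of those windows. Dense CG before the start is a usual feature of broadly used genes. Ezh1, with little PR signal, and Eed, with PR above the median of all rows at every stage, both had fewer than the other 5 genes. PR may not cover the start site, and a relation between CG and PR was not tested.

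Read depth per file is unknown. Window sums were whole multiples of one step per library, 0.162, 0.167 and 0.163 deposited units in stage order. Whether a step is a read or a covered position is not stated. The median row held a PR sum of 146, 132 and 206 steps over its 6000 positions, so single PR values of genes rest on little signal. Median GB over identified rows was 0.00432, 0.00421 and 0.00371 in stage order, and median PR 0.00394, 0.00368 and 0.00559. Over rows above 0 alone, median GB was 0.00503, 0.00495 and 0.00537, so the E15.5 library was lower or higher than the others by the rows counted. Directions below are of deposited values and were also read after dividing by either median GB and after quantile normalization, and exceptions are given beside them. A stronger mark in each cell and a mark in more of the sorted cells cannot be told apart. The reference table paired 0 deposited identifiers with a symbol, so markers of epithelium and of other cell types, and further Polycomb genes, were not analysed here.

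Gene-body signal of the core PRC2 genes was highest at E15.5 in all 4 of them, except that after quantile normalization Ezh1 was highest at E13.5. After dividing by the median GB over rows above 0, Ezh1 at E15.5 was only 1.001 times E13.5. For Ezh2 the body outside PR was between 0.618 and 2.04 times E13.5 at E15.5, so its direction there is not settled. The median GB percentile of the 7 genes among identified rows was 47.7, 46.2 and 72.1 in stage order. Of the 4 catalytic and core genes, Ezh1 stood high at every stage, and Ezh2, Eed and Suz12 came close to it or passed it in the E15.5 library alone. Among the 18116 rows above the floor in any library, GB was highest at E15.5 in 41.9%, at E11.5 in 31.2% and at E13.5 in 26.9%. The floor was the median of all identified values of a column, 0.00413 for GB.

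Ezh1 (ENSMUSG00000006920), the catalytic subunit usually linked to resting and mature cells, had GB of 0.00692, 0.00776 and 0.00843 in stage order. It was the steadiest body of the 7 and above the median of all rows in each library, at the 70.4th, 77.7th and 72.8th percentile. Its highest GB was 1.22 times its lowest. Among bodies of 12000 to 50000 positions, its own length class, it was at the 63.7th, 74.5th and 68.3rd percentile. Length classes hold only rows with a recovered length, which needs GB above 0 in at least 2 libraries.

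Ezh2 (ENSMUSG00000029687), the catalytic subunit of dividing cells, had GB of 0.00409, 0.00491 and 0.0100 in stage order. The early libraries lay close together, and E15.5 stood apart at 2.45 times E11.5 and 2.04 times E13.5. The percentile went from 47.7 and 56.9 to 77.2. Among bodies of 50000 positions or more it went from 51.2 and 65.5 to 93.2. At E11.5 and E13.5 Ezh1 exceeded Ezh2, and at E15.5 Ezh2 exceeded Ezh1. GB is a mean per position, but it was lower in long bodies, and Ezh2 is the longer gene. Up to 69.7% of the E15.5 signal of Ezh2 can lie in PR, which leaves as little as 0.00303 per position against at least 0.00842 in Ezh1, so the order of the pair at E15.5 is not settled outside PR.

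Eed (ENSMUSG00000030619), the subunit that reads methylated lysine 27, had GB of 0.00555, 0.00313 and 0.0105. It was lowest at E13.5 and was the highest of the 7 genes at E15.5, at the 60.8th, 37.8th and 78.3rd percentile. The E15.5 value was 3.36 times that at E13.5. Suz12 (ENSMUSG00000017548), the subunit that holds the complex together, had GB of 0.00275, 0.00315 and 0.00822. It was below the median of all rows in the earlier libraries, at the 34.3rd and 38.1st percentile, and at the 72.1st at E15.5, 2.99 times E11.5. Eed and Suz12 had nearly the same GB at E13.5, and with no replicate their order there means nothing.

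Jarid2 (ENSMUSG00000038518), the longest of the 7 genes, had GB of 0.00519, 0.00388 and 0.00473. It lay near the middle of the table throughout, at the 57.8th, 46.2nd and 56.7th percentile, and its highest value was 1.34 times its lowest. Unlike the 4 core genes it was highest at E11.5, though after dividing by the median GB over all rows it was highest at E15.5. Among bodies of 50000 positions or more, where signal per position is lower, it was at the 67.4th, 47.0th and 67.0th percentile. Its sum over the body, 6120, 4420 and 5546 steps, was the largest of the 7 in each library, so its values rest on the most signal.

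In GB as deposited, the PRC1 genes Rnf2 and Bmi1 lay below the PRC2 core genes at E15.5. Outside PR, Ezh2 could hold as little as 0.00303 per position there, so its place above Rnf2 is not settled outside PR. Rnf2 (ENSMUSG00000026484), the ubiquitin ligase, had GB of 0.00366, 0.00493 and 0.00325. It was highest at E13.5 and stayed within 1.52-fold over the stages, at the 43.3rd, 57.2nd and 46.7th percentile. Bmi1 (ENSMUSG00000026739) had GB of 0.000135, 0.000279 and 0.000221, the lowest of the 7 genes in every library. These were sums of 8, 16 and 13 steps over 9612 positions, and the percentiles were 14.6, 16.8 and 23.5. Among bodies under 12000 positions they were 5.38, 9.82 and 20.3. That class leaves out rows without GB above 0 in at least 2 libraries, so these percentiles are lower partly for that reason. GB was listed at 0 in 12.9, 14.8 and 20.3% of all identified rows in stage order, so Bmi1 stood just above the empty rows. The order of its stages is not readable at this signal.

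**Figure D1:**
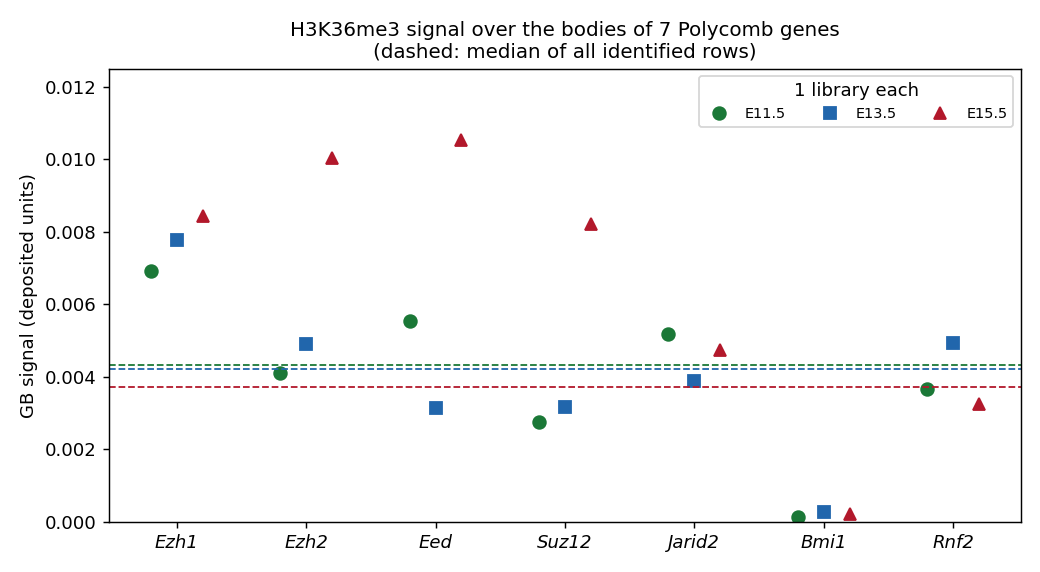
GB signal in deposited units on the vertical axis for the 7 genes, with 1 point per library (green circle E11.5, blue square E13.5, red triangle E15.5) and dashed lines at the median of all identified rows in the same colours. Ezh2, Eed and Suz12 have E15.5 points between 0.00822 and 0.0105, apart from their own earlier points, Ezh1 is high throughout and Bmi1 lies near 0.

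Genes at least 2-fold apart were counted on log2(value + 0.001), for genes whose higher library reached the floor. This scale understates the change of low values. For E13.5 over E11.5, 5 of the 7 genes reached the GB floor and 0 were 2-fold higher or lower, against 17.2% and 19.4% of the 16346 rows. No test was run, so no p-value stands beside these counts. The change nearest to 2-fold was that of Eed, at -0.67. For E15.5 over E13.5, 6 genes reached the floor. Eed at 1.48 and Suz12 at 1.15 were at least 2-fold higher and 0 were lower, against 27.6% higher and 22.1% lower over all rows. Ezh2, at 0.90, fell short. For E15.5 over E11.5, 5 genes reached the floor. Suz12 at 1.30 and Ezh2 at 1.12 were at least 2-fold higher and 0 were lower, against 26.5% and 22.8%. Bmi1 reached the floor in no comparison, Suz12 not in the first and Rnf2 not in the last. Each gene counted as higher was under the floor at the earlier stage of its pair, so it entered only through the E15.5 library, where it was high. With so few genes, 2 of 6 and 2 of 5 do not stand apart from the background shares. The comparisons with E15.5 share that library, and those with E11.5 and E13.5 share theirs.

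The median log2 GB ratio of the genes above the floor was 0.15 for E13.5 over E11.5, 0.57 for E15.5 over E13.5 and 0.81 for E15.5 over E11.5. Over all rows above the floor the medians were -0.07, 0.22 and 0.14. Over all 7 genes, with those under the floor included, the medians were 0.15, 0.23 and 0.25. No median that includes rows under the floor is at hand to set beside these. With the PR sum taken out of GB, the medians of the genes above the floor were 0.17, 0.17 and 0.24. Single genes lay within the spread of all rows. The log2 ratio of Eed for E15.5 over E13.5 was at the 81.2nd percentile of rows above the floor, and that of Suz12 for E15.5 over E11.5 at the 78.8th.

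PR percentiles ranged more widely over the libraries than GB percentiles in every gene but Eed, where the range was 16.4 points for PR and 40.5 for GB, and the PR range was widest in Ezh2. PR of Ezh2 was 0.00356 at E11.5, listed at 0 at E13.5 and 0.0755 at E15.5. Only the E15.5 library is high, at the 99.3rd percentile with 178 rows above it, against 47.5 and 5.94 before. The E15.5 sum was 2780 steps over 6000 positions, against 132 and 0. It was 21.2 times the E11.5 value, and no fold is given against the value listed at 0. Over the 22472, 21427 and 18947 rows with PR above 0 in stage order, the PR sum exceeded the SE sum in 0, as a PR window inside SE would give. SE of Ezh2 was 0.00275, 0.00162 and 0.0377. At E15.5 the SE sum was also 2780 steps, so with PR inside SE the other 6000 positions of SE held 0.

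Ezh1 went the other way at the same stage. Its PR was 0.00162, 0.00223 and 0.0000550 in stage order, sums of 60, 80 and 2 steps, and its SE was 0.00375, 0.00142 and 0.000462. All of these PR values lay below the median of all rows, at the 31.7th, 37.4th and 23.2nd percentile. At E15.5 PR of Ezh1 was thus close to 0 while its GB was at its highest, 153 times PR. At E15.5 the catalytic pair had, of the 7 genes, the highest and the lowest PR.

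PR of Eed was 0.00777, 0.0114 and 0.0191, above the median of all rows at every stage, at the 72.5th, 89.0th and 77.8th percentile. It is the one gene of the 7 with PR and SE above the floor in all libraries. PR of Suz12 was 0.00113, 0.000167 and 0.00929, so the early libraries were nearly empty, with 42 and 6 steps, and E15.5 had 342. PR of Jarid2 was 0.000810, 0.00871 and 0.0175, low at E11.5 and at the 80.3rd and 75.3rd percentile afterwards. Eed, Suz12 and Jarid2 all had their highest PR and SE at E15.5, as did 53.3% of the 19978 rows above the PR floor in any library and 54.5% of the 19467 above the SE floor. After quantile normalization PR of Eed, SE of Eed and PR of Jarid2 were highest at E13.5 instead.

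PR of Rnf2 was 0.00669, 0.000223 and 0.00206, and SE was 0.00625, 0.00329 and 0.00223. In both columns E11.5 was its highest stage, as in 25.1% of rows above the floor for PR and 24.8% for SE. SE of Ezh1 was also highest at E11.5, and Rnf2 was the one gene of the 7 with both columns highest there. Of rows above the floor, 21.6% had their highest PR at E13.5 and 20.7% their highest SE. PR of Ezh1 was highest at E13.5 but under the floor, and 0 of the 7 genes had their highest SE there. PR of Bmi1 was listed at 0 at E11.5 and was 0.000447 and 0.00717 afterwards, and SE was 0.000135, 0.000391 and 0.0144. SE of Bmi1 went from the 4.61st and 7.31st percentile to the 77.7th. At E15.5 the PR sum of Bmi1 was 264 steps while its whole body held 13, so at least 251 of those steps lay outside the gene. The SE sum held a further 796. RefSeq places Commd3 (chr2:18672435-18676231) 787 positions before the start of Bmi1 and the predicted gene Gm46725 (chr2:18687502-18690731) 873 positions past its end. Either end therefore has another gene inside a window of this size, and signal there cannot be assigned to Bmi1. The same limit can touch PR of 3 other genes, depending on which end PR covers. The long noncoding RNA gene F830010H11Rik overlaps the RefSeq span of Ezh2 by 62 positions, upstream of the start site used for GB. Dtnbp1 lies 436 positions past the end of Jarid2 and Cntnap1 391 past the end of Ezh1. SE has the same limit with a longer reach, of about 6000 positions. Within it also lie Cul1, 4130 positions past the end of Ezh2, and the long noncoding RNA gene Gm33355, 4614 before the start of Bmi1.

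**Figure D2:**
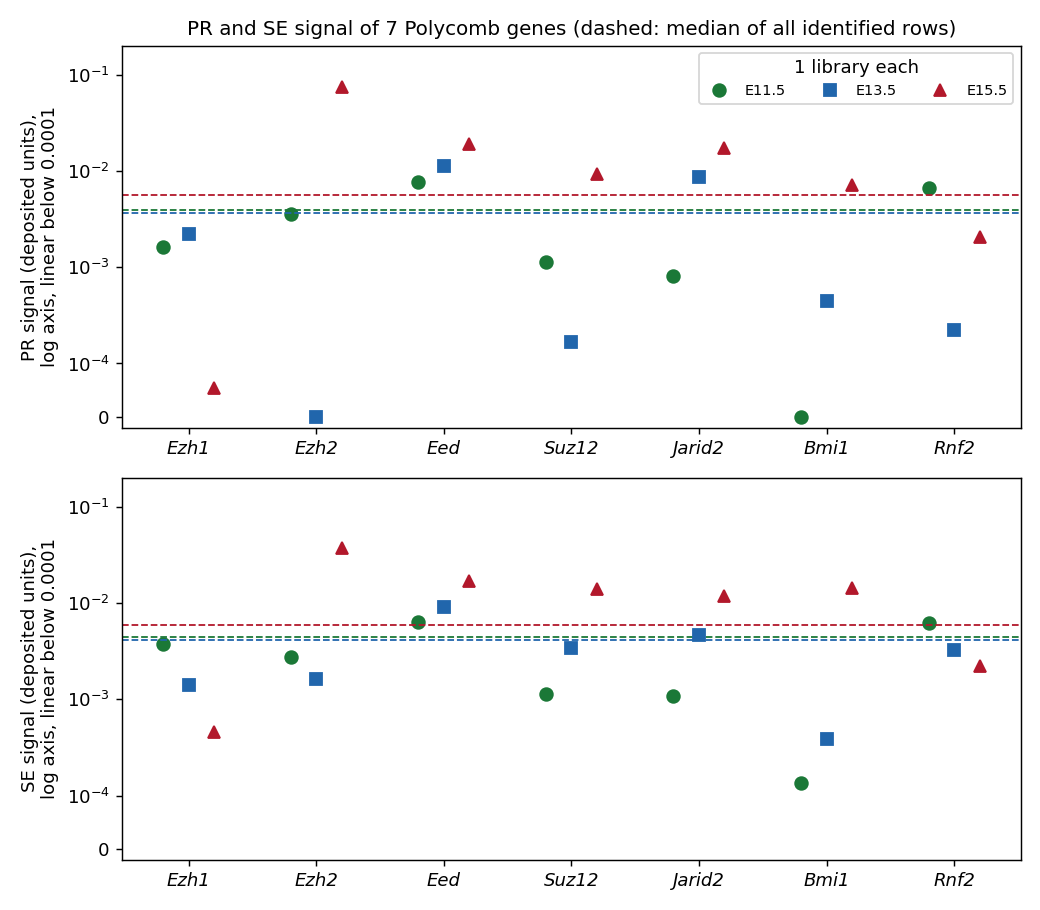
PR (upper panel) and SE (lower panel) signal in deposited units for the 7 genes, on a log axis that is linear below 0.0001, with 1 point per library and dashed lines at the median of all identified rows. In both panels the red E15.5 triangle is the highest point for Ezh2, Eed, Suz12, Jarid2 and Bmi1 and the lowest for Ezh1, although after quantile normalization E15.5 is not the highest for PR and SE of Eed and PR of Jarid2, nor the lowest for SE of Ezh1, and PR of Ezh2 at E15.5 reaches 0.0755.

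Counted at 2-fold, PR of Jarid2 was higher and PR of Rnf2 lower at E13.5 than at E11.5, among 3 genes above the PR floor of 0.00407. The background was 28.8% higher and 32.8% lower. For E15.5 over E13.5, Ezh2, Suz12 and Bmi1 were higher among 5 genes, with 0 lower, against 52.2% and 24.7%. For E15.5 over E11.5, Ezh2, Eed, Suz12, Jarid2 and Bmi1 were higher and Rnf2 lower among 6 genes, against 50% and 26.0%. With 5 and 6 genes above the floor, 3 of 5 and 5 of 6 higher cannot be set apart from these shares. Ezh2, Suz12 and Bmi1 reached the PR and SE floors at E15.5 alone, so they entered only through the library in which they were high. In SE, Jarid2 was higher in the first comparison among 3 genes, against 19.9% higher and 24.8% lower. For E15.5 over E13.5, Ezh2, Suz12, Jarid2 and Bmi1 were higher in SE among 5 genes, against 45.7% and 17.9%. For E15.5 over E11.5, Ezh2, Eed, Suz12, Jarid2 and Bmi1 were higher and Rnf2 lower among 6, against 42.7% and 19.7%.

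The Ezh2 difference was large among rows. Its log2 PR ratio was 4.07 for E15.5 over E11.5, at the 95.1st percentile of rows above the floor, where the median row had 1.001. For E15.5 over E13.5 it was at the 99.97th percentile, which rests on a value listed at 0. SE ratios of Bmi1 were at the 97.5th percentile for E15.5 over E13.5 and the 98.7th for E15.5 over E11.5. PR ratios of Eed, by contrast, were at the 42.4th and 53.6th percentile, in the middle of a table that was itself higher.

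PR and GB can be set against each other within a library, where one scale factor per library cancels. The median PR to GB ratio of the 7 genes was 0.413, 0.288 and 1.82 in stage order, with Bmi1 at E11.5 and Ezh2 at E13.5 at 0. Among the 6, 6 and 7 genes above 0 it was 0.642, 0.945 and 1.82, against 0.827, 0.827 and 1.42 over all rows with both values above 0. Among the 6, 5 and 6 of those genes with bodies of 12000 positions or more it was 0.642, 0.288 and 1.47, against 0.837, 0.871 and 1.91 over rows of that length. Which side of the background the genes lie on at E13.5 and E15.5 therefore depends on the genes counted. At E15.5 the 7 genes ranged from 0.00653 in Ezh1, at the 0.233rd percentile of all rows above 0, to 32.5 in Bmi1, at the 98.6th. Ezh2 had 7.53, at the 91.7th, Jarid2 3.69, Eed 1.82, Suz12 1.13 and Rnf2 0.635.

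Because PR reaches into the gene, part of a GB value can be PR signal. At most the whole PR sum lies in the body, which bounds what the rest of the body holds. For Ezh2 at E15.5 the GB sum was 3986 steps, of which up to 2780, or 69.7%, can lie in PR. The body outside PR then held between 1206 and 3986 steps, against 1504 to 1636 at E11.5 and 1898 at E13.5. Whether Ezh2 was higher outside PR at E15.5 is therefore not settled, with a ratio to E11.5 between 0.742 and 2.67.

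For the other core genes the bound does not turn the direction. Suz12 outside PR was between 2.499 and 3.19 times its E11.5 signal at E15.5, and between 2.18 and 2.63 times E13.5. Eed was at least 1.97 times E13.5 and between 1.11 and 2.78 times E11.5. Ezh1 was between 1.22 and 1.27 times E11.5, with at most 4.88% of its body signal in PR in any library. Jarid2 was between 0.806 and 0.917 times E11.5 as deposited, though its GB was 1.06 times E11.5 after dividing by the median GB over all rows, and at E13.5 between 0.694 and 0.751 times. Rnf2 was higher at E13.5 than at both other stages within the bounds, and its E15.5 over E11.5 direction was not settled. In Bmi1 no comparison was settled.

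**Figure D3:**
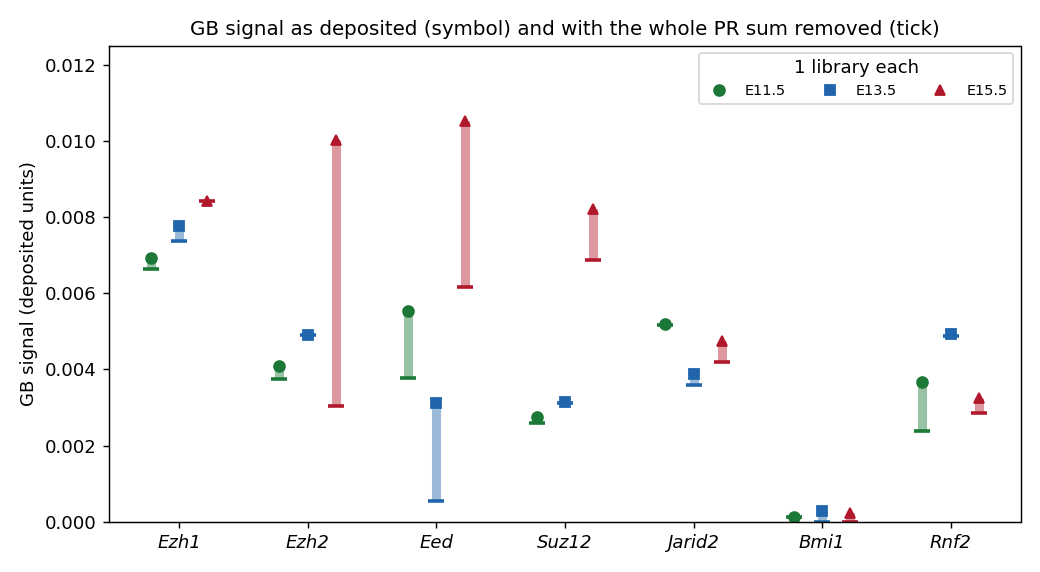
GB signal in deposited units for the 7 genes, with 1 symbol per library as deposited and a bar down to a tick at the value left when the whole PR sum is taken out of the body. The E15.5 bar of Ezh2 runs from 0.0100 down to 0.00303, across its earlier values, whereas that of Suz12 ends at 0.00686, above both earlier points.

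The genes differed in how steady they were. The range of the GB percentile over the stages was 7.27 points in Ezh1, 11.7 in Jarid2, 14.0 in Rnf2, 29.5 in Ezh2, 37.8 in Suz12 and 40.5 in Eed. That of Bmi1, 8.91 points, is no measure of steadiness, since its 8 to 16 steps lie just above the rows at 0. The median range over all rows was 24.7 points for GB and 42.2 for PR. For PR the 7 genes had a median range of 49.9 points, and Ezh2 the widest, at 93.3. Nearness between genes was measured as the root mean square difference in percentile over the 9 values of a gene. Ezh2 and Suz12 were each nearest to the other, at 20.8 points, as were Ezh1 and Rnf2, at 23.5. Bmi1 and Eed were the farthest apart, at 53.5 points. By GB alone Ezh2 was nearest to Eed, at 13.4 points, and Jarid2 and Rnf2 to each other, at 12.0. These distances describe 3 libraries and carry no measure of chance.

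**Figure D4:**
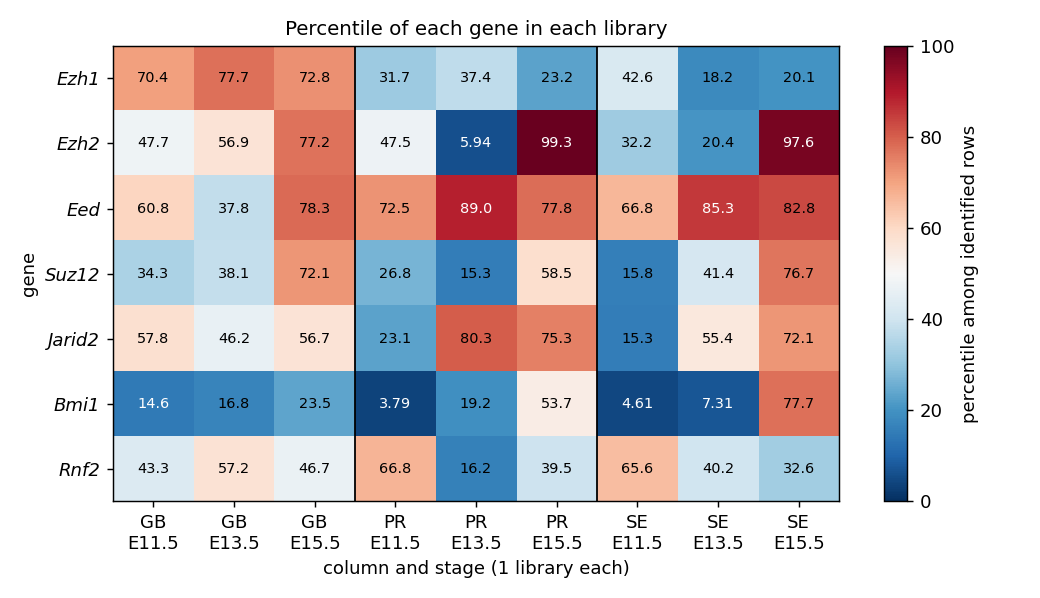
Percentile of each of the 7 genes (vertical axis) among all identified rows for GB, PR and SE at each stage (horizontal axis, 1 library each), from blue at 0 to red at 100. Ezh1 is red in GB and blue in PR and SE throughout, the E15.5 columns of Ezh2 are red in all 3, and Bmi1 is blue in every GB column.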

How the data were processed

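H3K36me3 CUT&Tag signal was analysed in 3 libraries, 1 per stage. Bowtie2 2.4.2 and the mouse build mm10 stand in the submitters' processing notes. For filters, gene models and scaling, nothing is given in the sources used here. The deposited values are signal, summed over a window per gene and divided by its length, in the columns PR, GB and SE. Of 25493 rows, 1175 (4.61%) had no identifier and were left out. Depth is unknown and no counting interval is given.

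The 7 genes, lists and thresholds were chosen with earlier results of these data known. All 7 are named whatever their values, and names come from the list that chose them. Percentiles are mid-ranks among identified rows. GB lengths are the smallest number of positions at which window sums had 2 decimals and were whole multiples of the step, within 0.04 steps plus 4e-05 of the sum, in every library above 0. At least 2 libraries had to be above 0, and the search began at 50 positions. Lengths were recovered for 20593 rows. On 1000 simulated windows 94.0% were exact. Ratios used a pseudocount of 0.001 and the median floor. With 1 library per stage no test was run. Pseudocount, floor, fold, scaling and ranking were varied. Python 3.11.15, NumPy 2.4.6 and pandas 2.3.3 were used.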

Additional observations from a re-analysis of the deposited data

How the results depend on the processing

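The alternatives gave 189 values for 36 results. Within a factor of 1.5 of the main value were 163, while 26 moved further and 0 turned direction. For log2 ratios the factor was taken on the fold, not on the log2 value. The median GB log2 ratio therefore counted as within it, though taking the PR sum out made it much smaller. It went from 0.57 to 0.17 for E15.5 over E13.5 and from 0.81 to 0.24 for E15.5 over E11.5. Each median of percentiles was within that factor. Only the median log2 ratios could turn, since counts, percentiles and PR to GB ratios have no sign. Some single genes did turn with scaling. GB of Jarid2 for E15.5 over E11.5 went from 0.912 to 1.06 after dividing by the median GB over all rows. PR of Eed for E15.5 over E13.5 went from 1.68 to 0.668 after quantile normalization. Taking the PR sum out of GB, and dividing by the median GB over rows above 0, were chosen after seeing the data. 1 library per stage and signal of a few steps limit every value, and causes of these changes were not tested. No paired analysis was possible because a stage is a single library. Lists that need gene names were not run.

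Counts are of the 7 genes, and pairs of stages are called first (E13.5 over E11.5), second (E15.5 over E13.5) and whole (E15.5 over E11.5). GB higher, 2 in the second pair and 2 in the whole, became 0 in both with a pseudocount of 0.005, which shrinks ratios by construction. It became 1 in both with the PR sum taken out, and 1 in the whole with quantile normalization. GB lower in the first, 0, became 1 at 1.5-fold and 1 with the PR sum taken out. PR lower, 1, 0 and 1 in order, became 2, 1 and 2 without a floor, and 0 in the whole with a pseudocount of 0.005. PR higher in the second, 3, became 5 at 1.5-fold. SE higher in the first, 1, became 0 with a pseudocount of 0.005, 2 without a floor and 0 after dividing by the median GB over all rows. SE lower in the first, 0, became 1 at 1.5-fold. SE lower in the whole, 1, became 0 with a pseudocount of 0.005, 2 without a floor and 0 after dividing by the median GB over all rows. The median log2 PR ratio of the genes above the floor, 2.497 in the second and 2.65 in the whole, became 3.73 and 3.60 with a pseudocount of 0.0001. With 0.005 it became 1.16 and 1.25. Those medians covered 5 and 6 genes. Over all 7 genes the medians were 1.32 and 2.27, and over all rows above the floor 1.12 and 1.001. The median PR to GB ratio of 0.413, 0.288 and 1.82 became 0.763, 0.826 and 2.88 as mean PR over mean GB.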
